A study of Mus musculus with 32 samples.

Results

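The genes described here are 10 genes of the smooth-muscle contractile apparatus, *Acta2*, *Actg2*, *Tagln*, *Cnn1*, *Cnn2*, *Myl9*, *Myh11*, *Tpm1*, *Tpm2* and *Lmod1*, of the 31053 genes counted in the series. They were found by symbol in the gene list of the count matrices, and the set was chosen with earlier results of these data known. The data are single-cell RNA-seq (scRNA-seq) counts of BMSC-OBs, which are bone marrow-derived stromal cells (BMSCs) of Diversity Outbred (DO) mice, an outbred stock of several inbred founder strains, grown to confluence and then kept in osteogenic medium with ascorbic acid, β-glycerophosphate and dexamethasone. All samples share this genotype class and treatment, and no untreated or control group is part of the design. Cells of 77 mice were combined in 16 pools of 4 or 5 mice, which limits each pool to an average over its mice. The libraries of every pool were read in 2 sequencing runs, so there are 32 samples. The age of the mice was not given in the sources used here.

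In smooth muscle, filaments of actin slide along filaments of myosin, and force is switched on when the regulatory light chain of myosin is phosphorylated. Tropomyosins lie along the actin filament, calponins and transgelin bind to it, and leiomodin starts new filaments. The same genes are switched on in myofibroblasts and in cultured stromal cells that spread on stiff plastic, and many are regulated by serum response factor (SRF) with its coactivators of the myocardin family, which SRF recruits to short DNA elements called CArG boxes.

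The genes lie on 8 chromosomes of GRCm38, with positions from GENCODE M21 by gene identifier. *Acta2* (ENSMUSG00000035783; chr19:34241090-34255590, minus strand) encodes smooth-muscle α-actin, and *Actg2* (ENSMUSG00000059430; chr6:83512905-83536265, minus strand) encodes smooth-muscle γ-actin. The actin-binding proteins are transgelin, from *Tagln* (ENSMUSG00000032085; chr9:45929619-45936058, minus strand), calponin 1, from *Cnn1* (ENSMUSG00000001349; chr9:22099216-22109630, plus strand), and the more widely expressed calponin 2, from *Cnn2* (ENSMUSG00000004665; chr10:79988584-79996062, plus strand). *Myl9* (ENSMUSG00000067818; chr2:156775420-156781658, plus strand) encodes a regulatory light chain of myosin and *Myh11* (ENSMUSG00000018830; chr16:14194535-14291372, minus strand) the smooth-muscle myosin heavy chain. Tropomyosins are encoded by *Tpm1* (ENSMUSG00000032366; chr9:67022590-67049406, minus strand) and *Tpm2* (ENSMUSG00000028464; chr4:43514711-43523765, minus strand), and leiomodin 1 by *Lmod1* (ENSMUSG00000048096; chr1:135324807-135368065, plus strand). All 10 are protein-coding. *Tagln* overlaps *Pcsk7* and the antisense gene *Gm48529* on the other strand, and *Lmod1* overlaps the snRNA gene *Gm22796*, likewise on the other strand. *Acta2* and *Actg2* have close copies in the other actin genes. How reads were assigned among these, and between *Tpm1* and *Tpm2*, was not examined.

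Promoter sequences, as given by RefSeq for GRCm38.p6, were at hand for 7 of the 10 genes (*Acta2*, *Cnn1*, *Cnn2*, *Lmod1*, *Myl9*, *Tpm1* and *Tpm2*). The 250 bases before the RefSeq start were searched for a CArG box (CC, then 6 bases that are A or T, then GG), which reads the same way on both strands. A complete box was found in *Cnn2* and *Myl9*, and a box in which 1 of the 6 central bases was not A or T was found 2 times in *Acta2* and once in *Myl9*. Of the 32851 promoters in the table, 482 (1.47%) held a complete box and 2823 (8.59%) held a box with this 1 difference allowed. These boxes are shown because they are what the promoters of *Acta2*, the member of highest level in progenitor-like cells, and of *Myl9* and *Cnn2* have in common. Each sequence below runs 5′ to 3′ on the strand of the gene, in a window of 30 bases, with the box in capitals.
Acta2, chr19:34255438-34255467, minus strand, box from 84 to 75 bases before the start: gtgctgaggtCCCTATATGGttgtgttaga
Acta2, chr19:34255388-34255417, minus strand, box from 34 to 25 bases before the start: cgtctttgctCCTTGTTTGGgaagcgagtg
Cnn2, chr10:79988534-79988563, plus strand, box from 56 to 47 bases before the start: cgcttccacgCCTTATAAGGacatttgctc
Myl9, chr2:156775293-156775322, plus strand, box from 161 to 152 bases before the start: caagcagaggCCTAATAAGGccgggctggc
Myl9, chr2:156775355-156775384, plus strand, box from 99 to 90 bases before the start: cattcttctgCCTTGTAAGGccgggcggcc
GENCODE M21 places the start of *Acta2* upstream of the RefSeq start, so both *Acta2* windows lie within the gene's bounds there. A match of letters is a description and not a measured site, and in *Cnn1*, *Lmod1*, *Tpm1* and *Tpm2* these letters were not in the window.

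The cells were gated into 4 classes by marker genes, none of which was a contractile gene. Cells of the 16 pools were kept with 400 to 6200 detected genes, called doublets were removed, and cells with collagen counts far above leukocyte counts and at least 2000 unique molecular identifiers (UMIs) were scored. This left 83906 kept cells, of which 51623 were on the collagen side. A cell joined the class of its highest marker score, which gave 8770 progenitor-like cells (markers such as *Timp3*, *Aspn* and *Mgp*), 9983 osteoblast-like cells (*Ifitm5*, *Smpd3*, *Bglap*), 6669 osteocyte-like cells (*Phex*, *Dmp1*, *Sost*) and 7589 MALP-like cells (marrow adipogenic lineage progenitors; *Adipoq*, *Lpl*, *Cxcl12*). The progenitor markers come from the study's gene list for late mesenchymal progenitors, which was made on cells of these mice. The limits of the scores were set after their distributions and the members' means had been seen, and 4148 of the 33011 gated cells lay within 0.1 of a limit. Single markers separated the classes to different degrees. *Aspn* was at 6.65 UMIs per 10000 in progenitor-like and at most 0.511 in the other classes, *Sost* at 5.51 in osteocyte-like and at most 0.493 in the others, and *Adipoq* at 14.98 in MALP-like and at most 0.108 in the others. Of the osteoblast markers, *Smpd3* was at 6.25 in osteoblast-like and 1.70 in osteocyte-like cells, but *Col11a1* was nearly equal (25.3 and 21.9) and *Ibsp* was higher in osteocyte-like cells (966 against 699.7). Of the progenitor markers, *Col8a1* (5.88 against 4.195), *Mgp* (21.2 against 14.6) and *Prss23* (4.14 against 1.79) overlapped between pools of progenitor-like and MALP-like cells. A further 12747 leukocytes served as a comparison for low levels. Their UMIs can come from RNA that floats free in the droplets or from the leukocytes themselves, and these parts were not separated. In leukocytes *Tpm1* (0.736 ± 0.155 UMIs per 10000, SD, n = 16 pools) and *Cnn2* (0.523 ± 0.161) were above *Acta2* (0.300 ± 0.0690).

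Each pool held from 53990642 to 100777353 UMIs in run 1. Run 1 held 107853 barcodes, and 105910 of them (98.2%) were found again in the pool's run 2 matrix, so both runs were repeat sequencing of the same droplets, and run 1 was used. Pool 13 stood apart with a median of 2664 UMIs per kept cell, against a highest pool median of 14677, and each comparison was repeated without it. Median depth was 18556 UMIs per progenitor-like cell, 19773 per osteoblast-like, 15003 per osteocyte-like and 9707 per MALP-like cell. Levels are given as UMIs (3′ counts, which do not grow with transcript length) of a gene per 10000 UMIs of all genes, summed over the cells of a class in a pool. The replicate is the pool (n = 16), and the mice within a pool are not separated.

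Progenitor-like cells held the highest summed level of the 10 genes, at 78.0 ± 14.1 UMIs per 10000 (SD, n = 16 pools), followed by MALP-like cells at 48.5 ± 9.75, osteoblast-like cells at 11.1 ± 2.57 and osteocyte-like cells at 6.02 ± 1.70. Leukocytes had 1.95 ± 0.299. Over pools the sum ran from 50.5 (pool 18) to 103 (pool 8) in progenitor-like cells, with a median of 78.1, and from 28.8 (pool 6) to 69.6 (pool 2) in MALP-like cells, with a median of 48.7. Both classes thus overlapped, while no pool of osteoblast-like cells, whose highest was 18.9, reached the lowest of either.

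**Figure D1:**
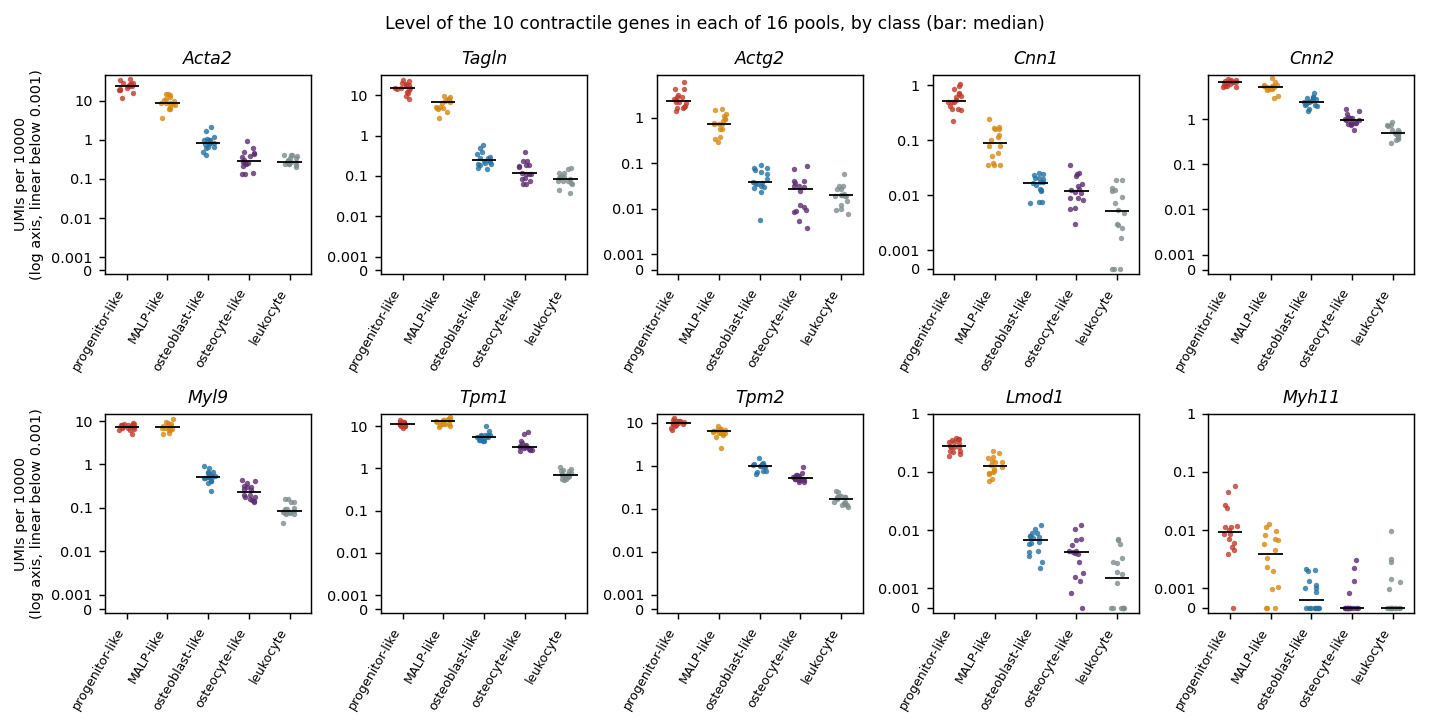
Level of each of the 10 genes in UMIs per 10000 (log axis, linear below 0.001) in progenitor-like, MALP-like, osteoblast-like and osteocyte-like cells and in leukocytes, with 1 point per pool (16 pools) and a bar at the median. Progenitor-like and MALP-like pools lie above the other classes for *Acta2*, *Tagln*, *Actg2*, *Cnn1*, *Myl9*, *Tpm2* and *Lmod1*, while the classes lie closer together for *Cnn2* and *Tpm1*.

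The smooth-muscle actins followed the order progenitor-like, MALP-like, osteoblast-like, osteocyte-like. *Acta2* was at 11.7 UMIs per 10000 in the lowest pool of progenitor-like cells, 24.2 in the median pool and 35.1 in the highest. In MALP-like cells it was at 3.67, 8.90 and 15.1 (lowest, median and highest pool) and in osteoblast-like cells at 0.415, 0.821 and 2.08. In osteocyte-like cells it was at 0.130, 0.291 and 0.914, where the highest was pool 13 and the next pool was at 0.606. Every progenitor-like pool was above every osteoblast-like pool, and osteoblast-like and osteocyte-like pools overlapped. *Actg2* was at 1.36, 2.30 and 6.07 in progenitor-like cells and at 0.292, 0.741 and 1.57 in MALP-like cells. It was at no more than 0.0908 in any osteoblast-like pool, a value from pool 13. The leukocyte level of *Acta2* was 0.300 ± 0.0690 and that of osteocyte-like cells 0.350 ± 0.203. Leukocytes had fewer UMIs per cell, so equal levels per 10000 do not stand for equal amounts of free RNA.

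Among the actin-binding proteins, *Tagln* and *Cnn1* had the same order as the actins, and *Cnn2* varied less between classes. *Tagln* was at 8.22, 14.8 and 23.5 UMIs per 10000 (lowest, median and highest pool) in progenitor-like cells and at 2.66, 6.65 and 9.65 in MALP-like cells. No osteoblast-like pool exceeded 0.571 and no osteocyte-like pool 0.396 (pool 13, with the next pool at 0.239). *Cnn1* was at 0.226, 0.518 and 1.07 in progenitor-like cells, at 0.0358, 0.0899 and 0.242 in MALP-like cells, and at 0.0163 ± 0.00591 in osteoblast-like and 0.0141 ± 0.00864 in osteocyte-like cells. For *Cnn1* the last pair of classes did not differ beyond the spread over pools. *Cnn2* was at 6.36 ± 0.784 in progenitor-like cells, from 5.23 in the lowest to 7.60 in the highest pool. It was at 3.01, 5.16 and 8.23 (lowest, median and highest pool) in MALP-like cells, at 1.51, 2.39 and 3.86 in osteoblast-like cells and at 0.581, 0.945 and 1.65 in osteocyte-like cells.

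The myosin genes split. *Myl9*, the regulatory light chain, was at 5.13, 7.37 and 9.04 UMIs per 10000 in progenitor-like cells and at 5.04, 7.41 and 11.1 in MALP-like cells, ranges that lay on top of each other. It was at 0.550 ± 0.167 in osteoblast-like and 0.251 ± 0.0970 in osteocyte-like cells. *Myh11*, the heavy chain of mature smooth muscle, was almost not detected: 259 UMIs over all progenitor-like cells of the 16 pools, 33 in MALP-like, 15 in osteoblast-like and 5 in osteocyte-like cells. Its level in progenitor-like cells was 0.0152 ± 0.0160 UMIs per 10000, from 0 in pool 13 to 0.0581 in pool 7, a spread as wide as the mean.

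Both tropomyosins were present in all 4 classes at different contrasts. *Tpm1* was at 9.11, 11.4 and 13.8 UMIs per 10000 in progenitor-like cells, 9.71, 12.8 and 16.4 in MALP-like cells, 4.40, 5.57 and 10.2 in osteoblast-like cells and 2.52, 3.22 and 7.17 in osteocyte-like cells. *Tpm2* was at 6.84, 9.95 and 12.8 in progenitor-like cells and at 2.62, 6.34 and 8.30 in MALP-like cells. In osteoblast-like cells *Tpm2* was at 0.991 ± 0.213 and in osteocyte-like cells at 0.546 ± 0.128. *Lmod1* was at 0.186, 0.279 and 0.382 in progenitor-like cells, at 0.0711, 0.126 and 0.227 in MALP-like cells and at no more than 0.0122 in any osteoblast-like pool.

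The first comparison asks how the contractile genes differ between progenitor-like and osteoblast-like cells of the same pools. The UMIs of all cells of a class in a pool were added up, and edgeR's quasi-likelihood test was run with pools as blocks and Benjamini-Hochberg adjustment over all genes tested. Of the 10 genes, 9 passed the filter on low counts and *Myh11* did not. All 9 were higher in the progenitor-like class (adjusted p no more than 0.05), where 41.2% of the 12088 genes tested were higher and 78.1% differed in either direction. *Lmod1* did not pass the filter between osteoblast-like and osteocyte-like cells, so here, and in MALP-like against osteoblast-like cells, it passed only through the class in which it was high and had to differ. The median log2 fold change of the 9 genes was 4.33, against 0.03 over all genes tested. The pools of the classes did not overlap for 8 of the 9 genes (all but *Tpm1*), against 17.2% of all genes tested.

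The changes ranged widely. *Tagln* had a log2 fold change of 5.45 (SE 0.17, edgeR adjusted p = 5.46e-17) and *Actg2* one of 5.44 (SE 0.19, edgeR adjusted p = 2.52e-16). *Lmod1* followed with 5.07 (SE 0.12), *Cnn1* with 4.76 (SE 0.14) and *Acta2* with 4.33 (SE 0.18, edgeR adjusted p = 2.37e-15). *Myl9* differed by 3.40 (SE 0.12) and *Tpm2* by 2.95 (SE 0.10) on the log2 scale. The broadly expressed forms changed least, with 0.98 (SE 0.08, edgeR adjusted p = 1.67e-10) for *Cnn2* and 0.58 (SE 0.07, edgeR adjusted p = 1.99e-07) for *Tpm1*. Each of the 9 genes was higher in progenitor-like cells in 16 of 16 pools, apart from *Tpm1*, which was higher in 15 on this scale and in 16 in UMIs per 10000. These values are relative to the bulk of genes, since the trimmed mean of M-values (TMM) scaling centres them. Scaling by library size alone moved the median of all genes to 0.42 and all 9 members up by about the same amount (*Acta2* 4.72, *Tpm1* 0.98). It turned 4978 genes higher and 4460 lower into 8182 higher and 2188 lower. Without the filter, *Myh11* had a log2 fold change of 3.61 (SE 0.36, edgeR adjusted p = 1.42e-10), a value that rests on 15 UMIs in osteoblast-like cells. With the limits of 400 to 6200 applied to UMI counts instead of detected genes, which left 940 progenitor-like and 1260 osteoblast-like cells, the log2 fold changes were 3.01 for *Tagln*, 2.13 for *Actg2*, 2.51 for *Acta2*, 2.31 for *Myl9* and 1.93 for *Tpm2*, and *Cnn1* and *Lmod1* were not tested. On the scale of UMIs per 10000, without TMM, *Acta2* was 25.4-fold higher in the median pool, from 13.7-fold to 84.5-fold.

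**Figure D2:**
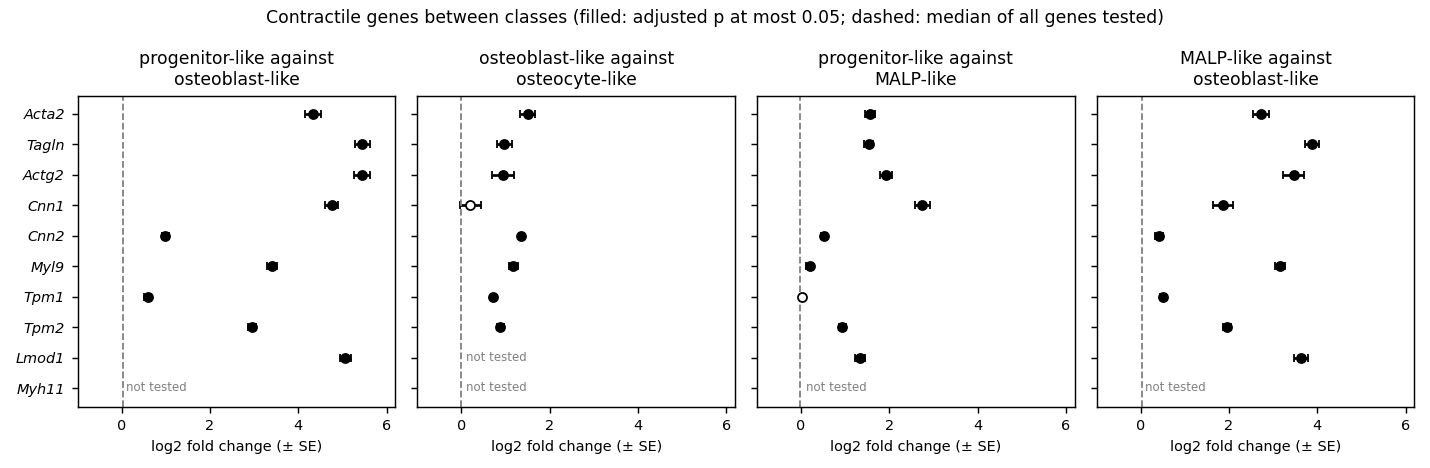
Log2 fold change with its standard error (edgeR) for the 10 genes in the 4 comparisons of classes, filled where the adjusted p is at most 0.05, with a dashed line at the median of all genes tested. In the progenitor-like against osteoblast-like panel *Cnn2* and *Tpm1* lie closest to the line of the genes tested, though above it (0.98 and 0.58), and *Tagln*, *Actg2* and *Lmod1* lie above 5.

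Whether the members differ from one another in the size of this change was tested on log2 ratios per pool (0.5 UMIs added to each count), with an exact two-sided sign-flip permutation test over the 16 pools, adjusted over 45 pairs. This test does not depend on the scaling, because both genes of a pair come from the same libraries. Of the 45 pairs, 42 differed at an adjusted p of at most 0.05. *Myh11* takes part in 9 pairs, and since it had 0 to 3 UMIs per pool in osteoblast-like cells, its ratio is set largely by the added 0.5 UMIs. Of the 36 pairs without it, 35 differed. The log2 ratio of *Acta2* was 1.12 below that of *Tagln* (SD 0.44; smaller in 16 of 16 pools; exact permutation p = 3.05e-05, the smallest that 16 pools can give; adjusted p = 5.09e-05) and 3.36 above that of *Cnn2* (SD 0.47; larger in 16 of 16 pools). *Cnn2* exceeded *Tpm1* by 0.40 (SD 0.27; larger in 15 of 16 pools). The pairs that did not differ at that threshold were *Tagln* with *Actg2* (difference -0.06, SD 0.48, exact permutation p = 0.595, adjusted p = 0.608), *Myl9* with *Myh11* and *Tpm2* with *Myh11*, and the *Myh11* pairs carry the spread of a gene with few counts (SD 1.76 and 1.67).

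MALP-like cells, the adipogenic branch of the cultures, had a summed level between those of both classes, but *Tpm1* was higher than in progenitor-like cells in UMIs per 10000 (12.8 ± 2.02 against 11.3 ± 1.26, higher in progenitor-like cells in 4 of 16 pools) and *Myl9* was not lower (7.55 ± 1.61 against 7.41 ± 1.06). Against osteoblast-like cells, the same 9 tested genes were higher in MALP-like cells by the edgeR test, where 42.1% of 11606 genes were higher and 81.5% differed. *Tagln* was higher by 3.88 (SE 0.15), *Lmod1* by 3.64 (SE 0.16), *Actg2* by 3.46 (SE 0.23) and *Myl9* by 3.16 (SE 0.12) on the log2 scale. *Acta2* differed by 2.72 (SE 0.17), *Tpm2* by 1.96 (SE 0.09), *Cnn1* by 1.86 (SE 0.23), *Tpm1* by 0.50 (SE 0.07) and *Cnn2* by 0.41 (SE 0.09). Pools did not overlap for 7 of the 9 genes, all but *Cnn2* and *Tpm1*, against 33.8% of all genes tested (27.9% with MALP-like higher). Scaling by library size moved the median of all genes to 0.68 in this comparison, and the members with it, and 4885 genes higher and 4577 lower became 8616 higher and 1920 lower.

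Against MALP-like cells, progenitor-like cells were higher for 8 of 9 tested genes, against 33.3% of 11740 genes higher and 70.8% different in either direction. *Cnn1* showed the widest gap, with a log2 fold change of 2.75 (SE 0.18, edgeR adjusted p = 1.14e-11), from 0.583 ± 0.233 UMIs per 10000 in progenitor-like to 0.104 ± 0.0625 in MALP-like cells. *Actg2* was higher by 1.92 (SE 0.14), *Acta2* by 1.56 (SE 0.12), *Tagln* by 1.53 (SE 0.11), *Lmod1* by 1.33 (SE 0.11), *Tpm2* by 0.93 (SE 0.07) and *Cnn2* by 0.52 (SE 0.08). *Cnn2* was higher in 15 and the other 6 in 16 of 16 pools. Pools of the classes overlapped for each member, and 10.1% of all genes tested did not overlap (2.47% with progenitor-like higher). *Myl9* differed by 0.19 (SE 0.08, edgeR adjusted p = 0.0428), was higher in progenitor-like cells in 12 of 16 pools, and changed to -0.01 with library size alone (8 of 16 pools in UMIs per 10000). A gate that used no progenitor markers called *Myl9* in the opposite direction (-0.20, edgeR adjusted p = 0.0313), and the call was lost without pairing of pools (edgeR adjusted p = 0.162) and in cells with at least 4000 UMIs (edgeR adjusted p = 0.0501). *Tpm1* differed by 0.03 (SE 0.06, edgeR adjusted p = 0.722), and its sign turned as well with library size alone (-0.18, edgeR adjusted p = 0.0105). That scaling moved the median of all genes to -0.23 and turned 3914 genes higher and 4394 lower into 2377 higher and 6472 lower.

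Between osteoblast-like and osteocyte-like cells, the level of 7 of the 8 tested genes was higher in osteoblast-like cells, where 30.7% of 11324 genes were higher and 61.3% differed. *Acta2* differed by 1.504 (SE 0.17), *Cnn2* by 1.35 (SE 0.05), *Myl9* by 1.17 (SE 0.10), *Tagln* by 0.97 (SE 0.17), *Actg2* by 0.94 (SE 0.25, edgeR adjusted p = 0.00279), *Tpm2* by 0.88 (SE 0.08) and *Tpm1* by 0.72 (SE 0.04) on the log2 scale. *Cnn1* differed by 0.20 (SE 0.23, edgeR adjusted p = 0.472), and *Lmod1* and *Myh11* were too low to test. *Cnn2*, *Myl9*, *Tpm1* and *Tpm2* were higher in 16 of 16 pools and *Actg2* in 13. No member had pools that did not overlap, and 1.69% of all genes tested had. With called doublets kept, *Acta2* had a log2 fold change of 1.02 and *Tagln* one of 0.39, and without pairing of pools *Actg2* had a log2 fold change of 0.75 (edgeR adjusted p = 0.0626).

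The low levels in these classes were set beside those of leukocytes. Osteocyte-like pools were above the leukocytes of the same pool for *Tpm1*, *Tpm2*, *Cnn2* and *Myl9* in 16 of 16 pools, with median ratios of 4.63, 3.04, 1.79 and 2.37. For *Acta2* they were above in 7 of 16 pools (median ratio 0.94), for *Actg2* in 7 (0.96) and for *Tagln* in 13 (1.33). Osteoblast-like pools were above leukocytes for *Acta2* in 16 of 16 pools (median ratio 3.15) and for *Tagln* in 16 of 16 (2.64, 1.19 in the lowest pool). For *Cnn1* this held in 16 of 16 (2.21), for *Lmod1* in 14 (1.87) and for *Actg2* in 12 (2.19). Ratios were taken over pools in which leukocytes held a UMI of the gene. Leukocytes held no UMI of *Lmod1* in 7 pools and none of *Cnn1* in 3, and these pools are not in the median ratios. The ratio of the means over all 16 pools was 3.17 for *Lmod1*, 2.31 for *Cnn1* and 2.16 for *Actg2*. It was 3.13 for *Acta2* and 3.08 for *Tagln*. The osteoblast-like levels behind the fold changes of *Tagln*, *Actg2*, *Lmod1*, *Cnn1* and *Acta2* thus lie within a small multiple of those of leukocytes. The ratio of *Acta2* to *Tagln* UMIs was 1.54 in the median progenitor-like pool (1.34 to 1.80) and 1.58 in the median MALP-like pool, but 2.96 in osteoblast-like cells, 2.29 in osteocyte-like cells and 3.70 in leukocytes.

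The osteoblast-like cells were also split in each pool at the median of their osteocalcin UMIs (*Bglap* plus *Bglap2*), as a description of less and more mature cells. *Acta2* was at 1.35 ± 0.530 UMIs per 10000 in the cells with less osteocalcin and 0.529 ± 0.405 in those with more, higher in the former in 16 of 16 pools, with a median ratio of 2.64. *Myl9* had a median ratio of 2.67 (15 of 16 pools), *Tagln* one of 2.17 (15 of 16), *Tpm2* one of 2.06 (16 of 16), *Cnn2* one of 1.59 (15 of 16) and *Tpm1* one of 1.32 (16 of 16). *Actg2* had a median ratio of 1.97 (14 of 16) and *Lmod1* one of 1.46 (12 of 16). *Cnn1* was close to equal in both sets, with a ratio of 1.16 and 10 of 16 pools. *Myh11* had 15 UMIs in all osteoblast-like cells and no UMI in 8 of 16 pools, so no direction is read for it. It was higher in the cells with less osteocalcin in 4 of 16 pools. Its median ratio was 0.46 over the pools in which the cells with more osteocalcin held a UMI.

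The mean level of the members was also followed between the osteoblast and progenitor ends. All collagen-side cells with a MALP score under 0.5 were placed in bins by the progenitor score minus the osteoblast score, gated or not. *Acta2* was higher at each step over the 8 bins, from 0.358 ± 0.267 UMIs per 10000 in cells below -1.5 through 3.39 ± 0.976 between -0.5 and 0 and 11.4 ± 2.81 between 0.5 and 1 to 27.6 ± 8.39 above 1.5 (SD, n = 16 pools). *Tagln* went from 0.0757 ± 0.0320 through 1.48 ± 0.503 and 6.09 ± 2.33 to 18.4 ± 5.71 in the same bins. *Cnn1* and *Lmod1* were steepest at the progenitor end: *Cnn1* was at 0.119 ± 0.0455 between 0.5 and 1, at 0.321 ± 0.188 between 1 and 1.5 and at 0.708 ± 0.320 above 1.5. *Tpm1* stayed near 5 below -0.5 (5.03, 4.97 and 5.17) and reached 11.3 ± 1.31 in the highest bin. Median depth fell to 7934 UMIs per cell in the bin from 0 to 0.5, against 19548 in the highest bin, and these means do not tell a gradual change from a mixture of cells.

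**Figure D3:**
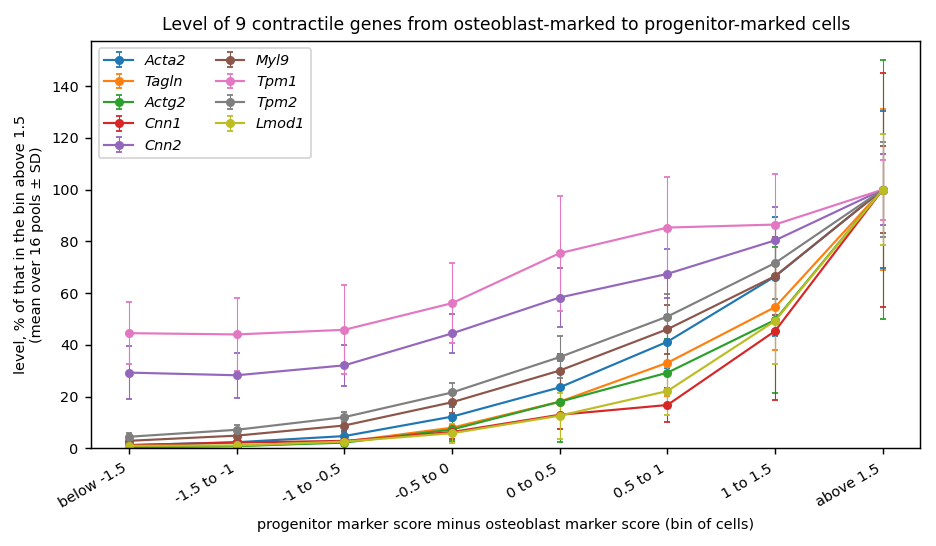
Level of 9 members (all but *Myh11*) in 8 bins of collagen-side cells, ordered by the progenitor marker score minus the osteoblast marker score, as % of the level in the bin above 1.5 (mean over 16 pools, bars are SD). In the middle bins *Cnn1* and *Lmod1* are at a smaller part of their level in the highest bin than the other genes. *Tpm1* and *Cnn2* keep the largest part of their level at the osteoblast end.

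At equal depth, the members also differed in how many cells carried them. Each cell was thinned to 4000 UMIs, which left out 583 progenitor-like, 713 osteoblast-like, 699 osteocyte-like, 732 MALP-like cells and 3621 leukocytes as too shallow. *Acta2* was found in 73.6% ± 8.21 of progenitor-like cells, 48.6% ± 7.73 of MALP-like, 16.9% ± 5.46 of osteoblast-like and 8.77% ± 4.60 of osteocyte-like cells, against 10.7% ± 3.24 of leukocytes (SD, n = 16 pools). The shares without thinning were 84.3%, 59.6%, 42.6%, 27.0% and 16.7% in the same order. The median depth of the cells kept for thinning was 19414 UMIs in progenitor-like, 10340 in MALP-like, 20828 in osteoblast-like and 16306 in osteocyte-like cells and 6929 in leukocytes. The share of osteocyte-like cells with *Acta2* was below that of leukocytes after thinning and above it without, so no order is read from it. *Tagln* was found in 71.1% ± 7.85 of progenitor-like, 48.3% ± 8.65 of MALP-like and 3.46% ± 1.18 of leukocytes after thinning, and in 83.8%, 59.7% and 5.22% without it. *Tpm1* was the most widespread, with 91.1% ± 1.75 of progenitor-like cells and 67.1% ± 7.64 of osteocyte-like cells after thinning (97.7% and 91.0% without). It was also found in 23.0% ± 4.76 of leukocytes after thinning (31.2% without). *Cnn1* was found in 13.9% ± 4.02 and *Lmod1* in 9.45% ± 1.99 of progenitor-like cells (30.2% and 27.1% without thinning), against 0.383% and 0.0718% of thinned leukocytes. *Myh11* was found in 0.523% ± 0.478 of progenitor-like cells (1.66% without), against 0.0436% of leukocytes.

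**Figure D4:**
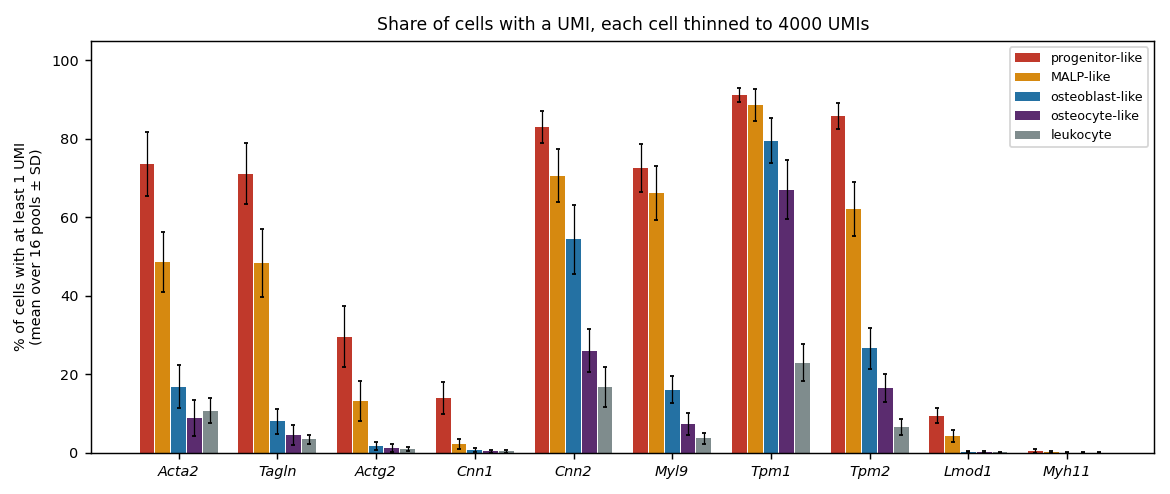
Share of cells with at least 1 UMI of each member after each cell was thinned to 4000 UMIs, as the mean over 16 pools with SD, for 4 gated classes and leukocytes. *Acta2* and *Tagln* are found in 73.6% and 71.1% of progenitor-like cells, and *Myh11* in 0.523%.

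Within progenitor-like cells the members were unevenly spread. In cells thinned to 4000 UMIs, the sum of the 10 genes was 4 UMIs at the 10th percentile, 20 at the median and 69 at the 90th percentile, with a highest value of 250. The 10% of cells with most of these UMIs held 32.01% ± 2.53 of them in a pool. For *Acta2* alone that part was 42.1% ± 5.92, and the variance over cells was 15.97 times the mean, where counting alone gives about 1. For *Tpm1* the variance was 3.42 times the mean. In MALP-like cells, where the mean of *Acta2* was lower, the median cell had 0 *Acta2* UMIs and the 90th percentile 10, and the 10% of cells with most held 59.5% ± 6.73 of them. For the sum of the 10 genes that part was 33.5% ± 2.71 in MALP-like cells, close to that in progenitor-like cells, and the variance of *Acta2* was 12.6 times the mean.

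Over the thinned progenitor-like cells of a pool, *Acta2* went with *Tagln* (Spearman rho 0.77 in the median pool, 0.69 to 0.81 over pools), *Myl9* (0.72) and *Tpm2* (0.69), less with *Cnn2* (0.47) and *Actg2* (0.45), and least of the well-detected genes with *Tpm1* (0.38). In MALP-like cells the median rho of *Acta2* was 0.61 with *Tagln*, 0.66 with *Myl9*, 0.65 with *Tpm2* and 0.14 with *Cnn1*. These values are descriptions over cells that share a library, and *Cnn1*, *Lmod1* and *Myh11* had sparse counts, whose part in them was not tested.

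The spread over pools differed between members. In progenitor-like cells the coefficient of variation over pools was 26.4% for *Acta2*, 27.1% for *Tagln*, 46.1% for *Actg2* and 40.0% for *Cnn1*, but 11.2% for *Tpm1*, 12.3% for *Cnn2*, 14.3% for *Myl9* and 15.6% for *Tpm2*. Differences between mice and between cultures and lanes of a pool cannot be told apart. Between the runs, the median difference in progenitor-like cells was 2.03% of the mean for *Acta2*, 3.98% for *Cnn1*, 5.40% for *Lmod1* and 24.3% for *Myh11*, and in osteoblast-like cells it was 8.00% for *Acta2*, 23.9% for *Cnn1* and 32.8% for *Lmod1*.

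The correlation of *Acta2* with the other 9 members over the 16 pools of progenitor-like cells was computed on log2 levels, with permutation tests (100000 permutations, two-sided) adjusted over the 9 relations. *Tagln* followed *Acta2* most closely, with a Pearson r of 0.95 (permutation p = 1e-05, the smallest that these permutations can give; adjusted p = 9e-05). Its rank correlation, Spearman's rho, was 0.91 (permutation p = 1e-05, adjusted p = 9e-05). Leaving out pools 18 and 6, the 2 that lay farthest out in *Acta2*, gave an r of 0.91. For *Myl9*, r was 0.87 (permutation p = 2e-05, adjusted p = 9e-05; rho 0.79, permutation p = 0.0005, adjusted p = 0.00225; 0.77 without the 2 pools) and for *Cnn1* it was 0.82 (permutation p = 0.00014, adjusted p = 0.00042; rho 0.75, permutation p = 0.0013, adjusted p = 0.0039; 0.79 without the 2 pools). *Cnn2* (r = 0.72, permutation p = 0.00137, adjusted p = 0.00308), *Actg2* (r = 0.67, permutation p = 0.00445, adjusted p = 0.00801) and *Tpm2* (r = 0.65, permutation p = 0.00681, adjusted p = 0.0102) passed the threshold with all pools, with rho of 0.70, 0.71 and 0.59 (permutation p = 0.00353, 0.00262 and 0.0184; adjusted p = 0.00635, 0.00589 and 0.0276). They did not pass it without the 2 pools (r of 0.58, 0.58 and 0.49; adjusted permutation p = 0.0519, 0.0519 and 0.114), so these relations rest in part on pools 18 and 6. *Tpm1* (r = 0.21, permutation p = 0.428, adjusted p = 0.482; rho 0.13, permutation p = 0.633, adjusted p = 0.633), *Lmod1* (r = 0.18, permutation p = 0.510, adjusted p = 0.510; rho 0.14, permutation p = 0.615, adjusted p = 0.633) and *Myh11* (r = 0.37, permutation p = 0.156, adjusted p = 0.201; rho 0.37, permutation p = 0.158, adjusted p = 0.203) did not pass it, and r with *Tpm1* turned to -0.19 without the 2 pools. Pool 18 was the lowest for *Acta2*, *Tagln*, *Cnn1*, *Cnn2* and *Myl9*.

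**Figure D5:**
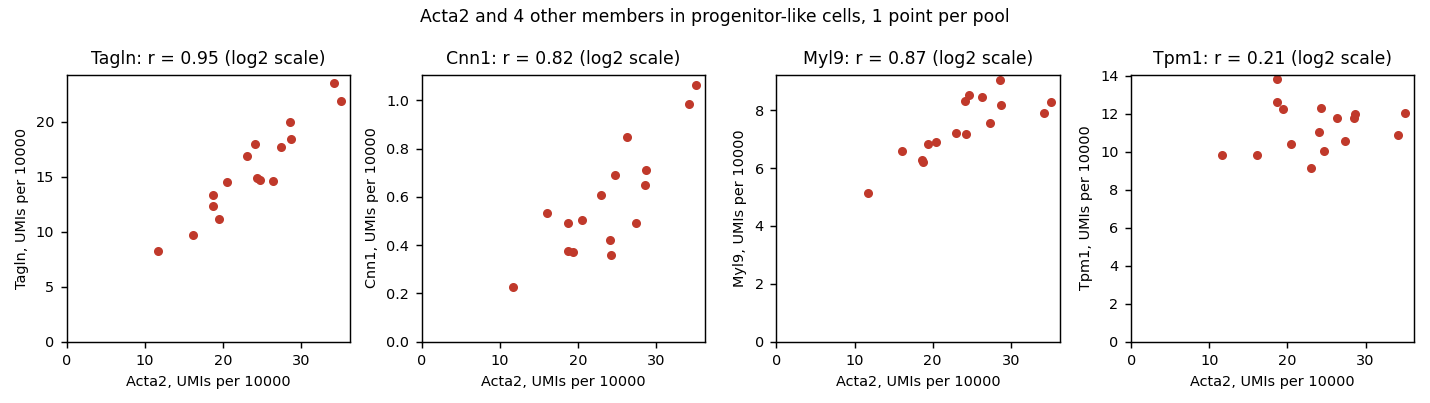
Level of *Tagln*, *Cnn1*, *Myl9* and *Tpm1* against that of *Acta2* in progenitor-like cells, in UMIs per 10000, with 1 point for each of the 16 pools. The points rise together for *Tagln* (r = 0.95 on the log2 scale), *Cnn1* (0.82) and *Myl9* (0.87) and not for *Tpm1* (0.21).

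The summed level of the members in progenitor-like cells was set against depth and composition of the pools, and no relation passed the adjusted threshold. Over 16 pools and 3 relations, Pearson r was 0.54 with the median UMIs per progenitor-like cell (permutation p = 0.0322, adjusted p = 0.0966; rho 0.29, permutation p = 0.283, adjusted p = 0.791; r 0.32 once the 2 farthest pools were left out), -0.02 with the share of progenitor-like cells (permutation p = 0.945, adjusted p = 0.945; rho 0.03, permutation p = 0.927, adjusted p = 0.927; -0.24 without the 2 farthest pools) and 0.34 with the share of osteoblast-like and osteocyte-like cells (permutation p = 0.192, adjusted p = 0.289; rho 0.17, permutation p = 0.528, adjusted p = 0.791; 0.44 without the 2 farthest pools). The part of depth in the relations between members was not tested.

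Among the 10 genes whose level over the 16 pools of progenitor-like cells was most like the mean z of the 10 members, among 2866 genes with a mean CPM (counts scaled to a fixed library total) of at least 50, were *Rps24* (r = 0.79), *Tgfb3* (0.76), *Msrb1* (0.76), *Ctsk* (0.74), *Rpl22l1* (0.72), *Csrp1* (0.71), *Ssr4* (0.69), *Col12a1* (0.68) and *Clec11a* (0.68). These are the highest values of many and are given as a description. The median over all genes was -0.24 and the 99th percentile 0.62. *Tgfb3* encodes a ligand of the TGF-β family, *Col12a1* a collagen that decorates fibrils and *Csrp1* a LIM protein of the actin skeleton, while *Rps24* and *Rpl22l1* encode ribosomal proteins.

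Further genes of the apparatus were taken from lists chosen with earlier results of these data known. Of 18 further genes of the actin filament and its partners, 16 were tested between progenitor-like and osteoblast-like cells, 14 were higher in progenitor-like cells, 1 was lower (*Myl12b*) and *Des*, the intermediate filament gene desmin, did not pass the test, where 41.2% of all genes tested were higher and 78.1% differed in either direction. Their median log2 fold change was 0.82, against 0.03 over all genes. *Csrp2*, a LIM protein of smooth muscle, was higher by 2.92 (SE 0.12, 16 of 16 pools) and *Synpo2*, which bundles actin, by 2.54 (SE 0.15, 16 of 16 pools). With TMM scaling, *Myl12b*, a non-muscle regulatory light chain, fell by 0.47 on the log2 scale (SE 0.07, higher in 1 of 16 pools). That fall depends on the scaling, since library size alone moved the median of all genes to 0.42. *Csrp2* also separated progenitor-like from MALP-like cells, with a log2 fold change of 2.49 (SE 0.10), while *Myl12b* was lower in progenitor-like than in MALP-like cells (-1.46, SE 0.06).

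Of 10 genes that control contraction, 9 were tested, 8 were higher and 1 was lower in progenitor-like than in osteoblast-like cells (41.2% of all genes higher, 78.1% different), with a median of 0.80. *Ppp1r14a*, which encodes an inhibitor of the myosin phosphatase, was higher by 3.79 (SE 0.15, 16 of 16 pools). *Mylk*, the myosin light chain kinase, was higher by 2.57 (SE 0.08, 16 of 16 pools). With TMM scaling, the phosphatase subunit gene *Ppp1cb* fell by 0.42 (SE 0.04, in 16 of 16 pools). Library size alone moved the median of all genes to 0.42 in this comparison, so this fall depends on the scaling. *Mylk* was highest in MALP-like cells: its log2 fold change was 3.67 (SE 0.11) against osteoblast-like cells, and in progenitor-like against MALP-like cells it was -1.15 (SE 0.07, edgeR adjusted p = 5.81e-12; lower in 16 of 16 pools). *Ppp1r14a* had the opposite sign there, with 2.42 (SE 0.14). Between progenitor-like and MALP-like cells 3 of the 9 genes were higher and 4 lower, where 33.3% of all genes were higher and 70.8% differed, while 13 of 16 actin partners were higher and 1 lower, and 7 of 10 genes of the SRF list were higher and 1 lower.

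Of 10 genes for SRF and its partners, all 10 were tested, 9 were higher and 1 was lower in progenitor-like than in osteoblast-like cells (41.2% of all genes higher, 78.1% different), with a median of 0.99. *Myocd*, the gene of myocardin, was at 3.24 CPM in progenitor-like and 0.378 CPM in osteoblast-like cells, a log2 fold change of 2.91 (SE 0.19), and the log2 fold change against MALP-like cells was 2.13 (SE 0.23). It did not pass the filter on low counts in the comparisons without progenitor-like cells, so it passed only through the class in which it was high, and its place among the 9 has no weight of its own. *Fhl2*, a LIM-only cofactor, was higher by 2.54 (SE 0.09). With TMM scaling, *Wwtr1*, which encodes the coactivator TAZ, fell by 0.52 on the log2 scale (SE 0.04). The size of this fall depends on the scaling, since library size alone moved the median of all genes to 0.42. Between osteoblast-like and osteocyte-like cells, 5 of 16 actin partners were higher and 3 lower, 3 and 4 of 9 control genes, and 4 and 1 of 9 genes of the SRF list, where 30.7% of all genes were higher and 61.3% differed.

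Markers of other cell types were checked in the progenitor-like cells. The summed level of 7 pericyte and vascular smooth muscle markers (*Rgs5*, *Cspg4*, *Notch3*, *Kcnj8*, *Abcc9*, *Higd1b*, *Mcam*) was 0.232 to 1.10 UMIs per 10000 over pools in progenitor-like cells (median 0.658) and 0.819 to 5.76 in osteoblast-like cells (median 1.19). The sum was 1.45 to 4.45 in osteocyte-like cells (median 2.39) and 0.263 to 0.764 in MALP-like cells (median 0.475). None of the 7 was at 0 in progenitor-like cells, and *Higd1b* was at 0 in osteoblast-like cells. Without progenitor-like cells that held 2 or more of these markers, 7671 of 8770 cells remained. In those, *Acta2* was at 22.6 ± 6.31 UMIs per 10000 and *Tagln* at 14.8 ± 4.11, against 23.8 ± 6.28 and 15.6 ± 4.23 in all. *Myh11* went from 0.0152 to 0.0103. Without cells that held any of the markers, 4553 of 8770 cells remained, with *Acta2* at 22.5 ± 6.48, *Tagln* at 14.7 ± 3.89 and *Myh11* at 0.00706. Single markers went both ways: the mean of *Notch3* (0.202 against 0.0696), *Mcam*, *Kcnj8* and *Higd1b* was higher in progenitor-like than in osteoblast-like cells, and that of *Rgs5* (0.116 against 0.721), *Cspg4* (0.230 against 0.672) and *Abcc9* was lower. The sum of 5 endothelial markers was 0.0608 to 0.218, that of 6 skeletal muscle markers 0.00375 to 0.0332, that of 6 leukocyte markers 0.186 to 0.756 and that of 5 T-cell markers 0.00632 to 0.0400 in progenitor-like cells. The sum of 4 glial markers was 0.236 to 0.984 in progenitor-like and 0.175 to 1.08 in MALP-like cells, against at most 0.0592 in osteoblast-like cells, with no marker at 0 in the first pair of classes. The part of glial transcripts in these results was not tested.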

How the data were processed

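The authors made the deposited UMI counts with Cell Ranger 5.0.0 and the mouse genome build mm10, and deposited them per called barcode without a filter on cells. The annotation release was not given in the sources used here. A cell was kept if it had 400 to 6200 detected genes and if mitochondrial genes took no more than 10%, *Rpl* genes 20% and *Rps* genes 15% of its UMIs, after the study's limits, whose unit was read as genes, and 5003 called doublets were removed. Classes needed a mean marker z score of at least 0.5 and 0.25 above the next class. Counts were summed per pool and class (at least 20 cells) and tested with edgeR 4.0.16 in R 4.3.3 (TMM, its filter on low counts, the pool as a block, a threshold of 0.05 on Benjamini-Hochberg adjusted p). Pools paired the classes, since cells of several cultures were combined and both classes of a pool were captured together, and deviations of same-pool samples correlated at 0.15 or more in each comparison (medians 0.34 to 0.52). DESeq2 1.42.0 was an alternative. On simulated counts, between 97.0% and 100% of genes changed by 1 on the log2 scale were recovered in the 4 comparisons. The simulation changed 199 or 200 genes per comparison, about as many up as down, none of them of low count. It held no differences between pools. It therefore does not bear on the scaling, the pairing of pools or members of low count. The members, lists and limits were chosen with earlier results of these data known. Members were named in each comparison, of each further list the 2 genes with the largest rise and the 2 with the largest fall, and the 10 genes most like the members over pools, of which 1 is not reported here. Intervals between pools cover differences between mice and preparations together.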

Additional observations from a re-analysis of the deposited data

How the results depend on the processing

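Of the log2 fold changes of members under the alternatives, 431 kept direction and side of the threshold, 8 no longer passed it and 6 changed sign. Those that kept it include repeats that could not differ from the main result. A limit of at least 50 cells per pool and class left out no pool. The gate without progenitor markers left the comparisons without progenitor-like cells as they were. With pool 13 left out, edgeR called 9429 genes between progenitor-like and osteoblast-like cells, against 9438 with it. The numbers were 6856 against 6945 between osteoblast-like and osteocyte-like cells. They were 8248 against 8308 between progenitor-like and MALP-like and 9520 against 9462 between MALP-like and osteoblast-like cells. With the limits of 400 to 6200 applied to UMI counts, only 940 progenitor-like, 1260 osteoblast-like, 1017 osteocyte-like and 1330 MALP-like cells remained, and fewer genes could be tested: edgeR called 1141 of 2632 genes between progenitor-like and osteoblast-like, 649 of 2573 between osteoblast-like and osteocyte-like, 1814 of 3910 between progenitor-like and MALP-like and 2137 of 3533 between MALP-like and osteoblast-like cells. Members called there were 2 of 6 tested between osteoblast-like and osteocyte-like and 5 of 7 between progenitor-like and MALP-like cells, and 26 of 45 pairs of members differed (an alternative chosen after seeing the data). Sign changes were those of *Cnn1* between osteoblast-like and osteocyte-like cells with doublets kept (-0.028, edgeR adjusted p = 0.935), and, between progenitor-like and MALP-like cells, of *Myl9* with a progenitor gate that used no progenitor markers (-0.20, edgeR adjusted p = 0.0313) and with library size alone (-0.012), and of *Tpm1* with limits on UMI counts (-0.12), with that gate (-0.18) and with library size alone (-0.18, edgeR adjusted p = 0.0105; chosen after seeing the data). The cause was not tested. Without the 2 pools farthest from the median, 3 of 9 correlations with *Acta2* passed the threshold, and r with *Tpm1* was -0.19.

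Without the pool as a replicate block, 9, 6, 7 and 9 members were called in the order progenitor-like against osteoblast-like, osteoblast-like against osteocyte-like, progenitor-like against MALP-like and MALP-like against osteoblast-like, and 8446, 5230, 7254 and 8947 genes in all. The calls lost without pairing were *Actg2* between osteoblast-like and osteocyte-like cells and *Myl9* between progenitor-like and MALP-like cells (0.18, edgeR adjusted p = 0.162), which was also lost in cells with at least 4000 UMIs (edgeR adjusted p = 0.0501). Of the levels, 60 moved by less than 1 SD over pools and 20 by more, when taken as a mean over cells or of a total without the 20 genes of highest count. Shares of cells depend on depth: 39 of 40 moved by more than 1 SD over pools without thinning.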

Other observations

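Collagen-side cells that no class took, 18612 in all, had *Acta2* at 6.22 ± 1.38 UMIs per 10000, *Tagln* at 3.20 ± 0.891 and *Tpm1* at 6.87 ± 1.73 (SD, n = 16 pools), between the levels of progenitor-like and osteoblast-like cells.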
